A study of Mus musculus with 9 samples.

Results

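The 10 genes described here make retinoic acid (Aldh1a1, Aldh1a2 and Aldh1a3), break it down (Cyp26a1 and Cyp26b1) or bind it and its partners in the nucleus (Rara, Rarb, Rarg, Rxra and Rxrb). They were found by symbol among the 46626 named rows of a table of gene levels in RPKM (reads scaled by transcript length in kilobases and by library size) from haematopoietic stem cells (HSCs) of C57BL/6 mice. The family was chosen by name, with the age difference of Aldh1a1 in these libraries already known, so the Aldh1a1 values against young mice are a description without a test. Of the 10 genes, 7 passed the filter of at least 1 RPKM in at least 3 libraries and entered the fit over 13516 genes, while Aldh1a2, Aldh1a3 and Cyp26a1 did not.

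Bone marrow HSCs, about 2000 sorted cells per library, came from 3 groups of 3 libraries. Groups were taken from the sample titles, and each column of values was matched to its sample by the sample's description. The column names end in the same tag in all groups, so they do not tell the groups apart. The BRL37344 old group had mice aged 15 to 20 months at the start that received BRL37344, an agonist of the β3-adrenergic receptor, at 2.4 mg per kg per day for 12 weeks from implanted osmotic pumps. The saline old group had mice of the same age with saline pumps, and the saline young group had mice aged 2 months at the start with saline pumps. Pumps were changed at 6 weeks, and the labels name no genetic change in any group. The labels do not say whether each library came from a separate mouse or from pooled mice, and a p-value here compares a difference with the variation among 3 libraries a group, whose source is not known.

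Retinoic acid is made from vitamin A in a pair of steps. Retinol is oxidised reversibly to retinal, and the Aldh1a enzymes then oxidise retinal irreversibly to retinoic acid. The Cyp26 enzymes are cytochromes P450 that hydroxylate retinoic acid and so clear it from the cell. The retinoic acid receptors (RARs) bind DNA as heterodimers with retinoid X receptors (RXRs), hold corepressors without ligand, and exchange them for coactivators once retinoic acid is bound. In mouse HSCs, retinoic acid signalling is known for its role in dormancy and self-renewal, and high aldehyde dehydrogenase activity has long been used to enrich stem cells.

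The classical DNA element of an RAR and RXR pair is the DR5, a direct repeat of a hexamer with 5 bases between the copies. It was searched on both strands in the 250 bases before each annotated start (RefSeq, GRCm38.p6), with each hexamer being AGGTCA, or else AGTTCA, or alternatively GGGTCA, or lastly GGTTCA. It was in 29 of 32851 windows (0.0883%), which belong to 28 genes. Of the 10 genes, 9 had a window (16 windows in all), and Rarb and Cyp26a1 were the members with a match. Single hexamers are common, with at least 1 in 38.6% of all windows. The windows of these 2 genes are shown because both carry the element, with the repeat in capitals; that of Rarb is at chr14:16575477-16575726 on the minus strand and that of Cyp26a1 at chr19:37697558-37697807 on the plus strand.
Rarb: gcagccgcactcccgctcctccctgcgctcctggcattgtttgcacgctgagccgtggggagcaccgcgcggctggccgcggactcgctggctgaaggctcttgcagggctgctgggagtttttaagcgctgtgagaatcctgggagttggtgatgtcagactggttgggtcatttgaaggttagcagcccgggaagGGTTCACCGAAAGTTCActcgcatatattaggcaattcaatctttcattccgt
Cyp26a1: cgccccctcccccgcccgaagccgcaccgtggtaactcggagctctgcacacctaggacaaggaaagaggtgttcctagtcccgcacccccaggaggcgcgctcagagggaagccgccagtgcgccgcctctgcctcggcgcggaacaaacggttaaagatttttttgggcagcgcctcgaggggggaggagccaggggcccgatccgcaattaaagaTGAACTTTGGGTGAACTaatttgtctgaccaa
The repeat of Rarb lay 53 to 37 bases before the annotated start of its window, and that of Cyp26a1, read on the other strand, 32 to 16 bases before its own. Both starts lie inside the annotated span of their gene, which also extends upstream of them. In these HSCs the 2 genes were far apart in level, with Rarb at 3.98 to 16.3 RPKM over the 9 libraries and Cyp26a1 at the file's offset of 0.0001 in each of them. Of the genes with a DR5 window, 5 were tested, and 0 of them were called in any of the 3 comparisons; the share called among all genes was at most 1.58%, so nothing can be read from a count over 5.

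The next windows are those of Aldh1a1, at chr19:20601718-20601967 on the plus strand, and of its close copy Aldh1a7, at chr19:20727557-20727806 on the minus strand, with a single hexamer match on the other strand in capitals. They are shown because the 2 genes lie near each other on chromosome 19 and share sequence. The windows lie before the annotated starts, so the likeness of the transcripts, not of the windows, bears on how reads can be told apart.
Aldh1a1: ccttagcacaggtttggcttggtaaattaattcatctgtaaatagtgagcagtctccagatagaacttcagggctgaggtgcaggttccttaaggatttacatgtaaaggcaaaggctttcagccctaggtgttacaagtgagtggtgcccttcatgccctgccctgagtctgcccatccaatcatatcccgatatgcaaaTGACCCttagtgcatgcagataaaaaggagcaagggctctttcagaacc
Aldh1a7: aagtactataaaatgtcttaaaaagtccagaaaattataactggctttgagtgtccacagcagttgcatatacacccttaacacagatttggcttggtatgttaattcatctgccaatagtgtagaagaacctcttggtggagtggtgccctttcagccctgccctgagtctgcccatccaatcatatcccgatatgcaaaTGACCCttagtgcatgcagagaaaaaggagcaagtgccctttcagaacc
Both hexamers lay 49 to 44 bases before the annotated start used. For Aldh1a1 this is the start nearest its main transcript, and the annotated span of the gene also extends upstream of it. The aligned windows were identical at 173 of 235 bases (73.6%), and the longest open reading frames of the 2 transcripts at 91.6% of bases.

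The levels rest on an implied depth of 16.01 to 45.01 M reads in BRL37344 old libraries, 15.3 to 41.6 M in saline old libraries and 12.2 to 22.5 M in saline young libraries, as recovered from the steps between low RPKM values. HSC markers were present throughout, with 11 of 12 at 1 RPKM or more in every library and a summed level of 1221 to 1693 RPKM in BRL37344 old, 1283 to 1460 RPKM in saline old and 1353 to 1584 RPKM in saline young libraries. Markers of mature neutrophils (10 genes) were uneven, with sums of 227 to 5432 RPKM in BRL37344 old, 725 to 938 RPKM in saline old and 1075 to 18620 RPKM in saline young libraries. The highest sums were in saline young library 3 and BRL37344 old library 2, and some results are given also without this pair. Without it the saline young sums still lay above the saline old ones. Mpo, a granulocyte precursor marker, had 24.97 to 404.6 RPKM in saline young and 1.352 to 1.894 RPKM in saline old libraries. BRL37344 old libraries had 3.273 to 142.1 RPKM. Between the saline groups Elane and Ctsg of that list also did not overlap, while Ms4a3, Cebpe and Prtn3 did. Prtn3 had the larger mean in saline old libraries. The part of these cells in the age differences was not tested. The 11 markers of marrow stroma and endothelium summed to 57.3 to 68.95 RPKM in BRL37344 old, 49.7 to 75.02 RPKM in saline old and 59.3 to 69.1 RPKM in saline young libraries. Of them 5 were at 1 RPKM or more in every library (Cxcl12, Col1a2, Pdgfrb, Pecam1 and Emcn), while Col1a1, Cdh5 and Kdr were at or under 0.292 RPKM throughout. Pdgfrb, a receptor of perivascular cells, had 6.95 to 7.83 RPKM in BRL37344 old, 5.47 to 6.55 RPKM in saline old and 4.14 to 4.63 RPKM in saline young libraries, without overlap between old and young. Of all genes tested, 20.3% did not overlap between saline old and saline young, and 15.2% between BRL37344 old and saline young. Col1a2 and Cxcl12 also had their smallest mean in saline young libraries, while Emcn and Pecam1 had their largest there. Emcn had 17.8 to 24.0 RPKM in BRL37344 old, 19.8 to 21.7 RPKM in saline old and 22.0 to 32.5 RPKM in saline young libraries. The part of such cells in the age differences was not tested. The 37 mitochondrially encoded genes are listed under 0.01 RPKM in every library, so a value at the offset does not show that a transcript is absent.

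**Figure D1:**
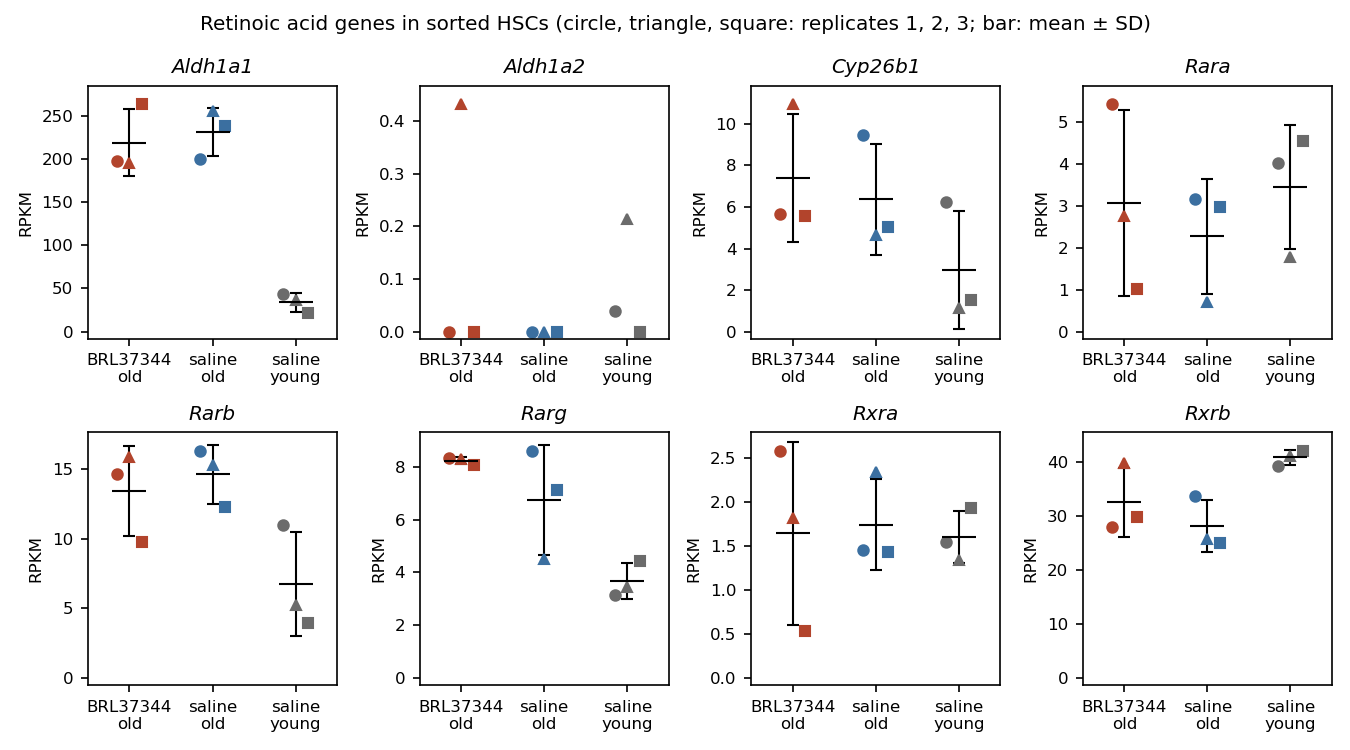
Levels in RPKM (vertical axes, linear) of 8 of the 10 members (without Aldh1a3 and Cyp26a1, at or near the offset in most libraries), in BRL37344 old, saline old and saline young libraries; circles, triangles and squares are replicates 1, 2 and 3, and bars are mean ± SD (n = 3, none for Aldh1a2, which is mostly at the offset). Aldh1a1 lies at 195 RPKM or more in each of the 6 old libraries and at 43.6 RPKM or less in each young library.

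Aldh1a1 (chr19:20492583-20643463, GRCm38), which makes retinoic acid from retinal, was the main retinal dehydrogenase transcript of these cells. It had 197, 195 and 263 RPKM in BRL37344 old libraries, 200, 255 and 238 RPKM in saline old libraries, and 43.6, 36.6 and 22.0 RPKM in saline young libraries. All 6 old libraries were above all 3 young ones, and the old groups overlapped each other. On the log2(RPKM + 0.5) scale the difference from saline young was 2.70 ± 0.23 (SE) in BRL37344 old and 2.79 ± 0.23 (SE) in saline old libraries, a 6.51-fold and a 6.92-fold higher level. Without the 2 libraries with the highest neutrophil sums, the difference was 2.495 in BRL37344 old and 2.51 in saline old libraries. Since about 2000 cells were pooled in each library, more cells with Aldh1a1 RNA and more RNA per cell cannot be told apart.

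The place of Aldh1a1 among the enzymes of its class restates the same levels and is no separate support for the difference. Of the summed RPKM of 21 Aldh genes it made up 20.0%, 17.6% and 25.2% in BRL37344 old, 20.6%, 24.6% and 20.95% in saline old, and 6.35%, 4.47% and 2.99% in saline young libraries. Aldh2, the mitochondrial enzyme that clears acetaldehyde, was the highest Aldh gene, and Aldh1a1 had rank 2 in each old library against ranks 4, 6 and 7 in the young ones. The ratio of Aldh1a1 to Aldh2 was 0.336 to 0.544 in BRL37344 old, 0.424 to 0.538 in saline old and 0.0528 to 0.117 in saline young libraries. Among all named rows of a library, its rank was 353 to 496 in BRL37344 old, 384 to 467 in saline old and 2819 to 4923 in saline young libraries. Its level corresponds to 5842 to 21962 implied reads in BRL37344 old, 5675 to 18382 in saline old and 916 to 1227 in saline young libraries, so counting error is small beside the spread between libraries.

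The copy Aldh1a7 had 0.0001, 0.653 and 0.952 RPKM in BRL37344 old, 0.280, 0.315 and 0.168 RPKM in saline old, and 0.791, 0.622 and 1.62 RPKM in saline young libraries. It stayed under the test's filter. Its highest value was in saline young library 3, where Aldh1a1 was lowest, and its next highest in BRL37344 old library 3, where Aldh1a1 was highest. Of all stretches of 25 bases in the Aldh1a1 transcript, 17.8% occur also in Aldh1a7, and of all stretches of 75 bases 2.53% do. The read length and the handling of shared reads are not given in the sources used here, so the split between the 2 genes is uncertain for Aldh1a7 in particular.

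The other retinal dehydrogenases contributed little. Aldh1a2, the main retinoic acid source of the early mouse embryo, had 0.0001, 0.432 and 0.0001 RPKM in BRL37344 old libraries, 0.0001 RPKM in each saline old library, and 0.0398, 0.214 and 0.0001 RPKM in saline young libraries. Its value in BRL37344 old library 2 corresponds to 30 implied reads, that in saline young library 2 to 8 and that in saline young library 1 to 1, with 0 in the other 6 libraries. These 2 libraries also had the highest summed level of the 8 B and plasma cell markers, at 500.2 RPKM in BRL37344 old library 2 and 467 RPKM in saline young library 2 against 168 to 279 RPKM in the other 7 libraries. Jchain, a gene of antibody-secreting and plasmacytoid cells, stood at 263 RPKM in each of the 2 and at 0.0002 to 16.3 RPKM elsewhere. Other markers of that list had another order, with Sdc1 highest in BRL37344 old library 1 (14.4 RPKM), Xbp1 in saline young library 3 (229 RPKM) and Cd79a in saline young library 1 (5.94 RPKM). Of the macrophage and dendritic cell markers, Siglech (1.76 RPKM) and Cd209a (2.18 RPKM) were above 0.1 RPKM in BRL37344 old library 2 alone, and Itgax and Xcr1 were under 0.1 RPKM in every library. These genes were set beside Aldh1a2 after their values were seen, and their part in it was not tested. Aldh1a3 reached 0.143 RPKM in BRL37344 old, 0.137 RPKM in saline old and 0.190 RPKM in saline young libraries, each in a single library or a pair of them, and was under 0.001 RPKM in the rest. Aldh1a1 therefore held at least 99.3% of the summed RPKM of the 3 genes in every library.

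Of the breakdown enzymes, Cyp26b1 (chr6:84571414-84593908), which clears retinoic acid, was detected in every library and Cyp26a1 in none. Cyp26b1 had 5.68, 10.9 and 5.56 RPKM in BRL37344 old, 9.46, 4.64 and 5.06 RPKM in saline old, and 6.24, 1.16 and 1.51 RPKM in saline young libraries. The groups overlapped through saline young library 1, which lay above 4 of the 6 old libraries. The log2 difference from saline young was 1.42 ± 0.52 (SE; adjusted p = 0.397, limma) in BRL37344 old and 1.22 ± 0.52 (SE; adjusted p = 0.305, limma) in saline old libraries, and neither passed the threshold of 0.05. Without the 2 libraries with the highest neutrophil sums the difference was 0.87 in BRL37344 old and 0.98 in saline old libraries. Cyp26a1 stood at 0.0001 RPKM in all 9 libraries, where 3 reads would have given 0.0419 to 0.155 RPKM, so a level below that could have been missed. This is not a strict limit, as the Aldh1a2 value in saline young library 1 corresponds to 1 implied read. The RPKM ratio of Aldh1a1 to Cyp26b1 was 34.7, 17.8 and 47.3 in BRL37344 old, 21.1, 55.0 and 47.1 in saline old, and 6.99, 31.7 and 14.6 in saline young libraries, with overlap between old and young.

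Of the receptors of retinoic acid, Rarb and Rarg had larger means in both old groups than in young libraries, and neither passed the test over all genes. Rarb (chr14:16430839-17082331), itself a textbook target of retinoic acid through the DR5 shown above, had 14.6, 15.9 and 9.78 RPKM in BRL37344 old, 16.3, 15.3 and 12.3 RPKM in saline old, and 11.0, 5.25 and 3.98 RPKM in saline young libraries. The saline groups did not overlap, while BRL37344 old library 3 was below saline young library 1. Against saline young the log2 difference was 1.03 ± 0.33 (SE; adjusted p = 0.298, limma) in BRL37344 old and 1.17 ± 0.33 (SE; adjusted p = 0.133, limma) in saline old libraries. The second of these passed in a fit without saline young library 1 (1.56, adjusted p = 0.0300, limma) and in a fit with sample quality weights (1.35, adjusted p = 0.0136, limma). Saline young library 1 was the young library highest in Rarb, and the weighted fit called 1284 of all genes tested, against 213. The saline old difference did not pass in 8 of 9 fits that each left out a library (adjusted p up to 0.356, limma), nor in 10 of 11 other alternatives. Without the libraries with the highest neutrophil sums the difference was 0.62 in BRL37344 old and 0.89 in saline old libraries.

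Rarg (chr15:102234938-102257522), whose loss in mice is known to reduce HSC self-renewal, had 8.32, 8.30 and 8.06 RPKM in BRL37344 old, 8.60, 4.50 and 7.12 RPKM in saline old, and 3.13, 3.43 and 4.45 RPKM in saline young libraries. The young libraries were below all 6 old ones, narrowly so against saline old library 2. The log2 difference from saline young was 1.08 ± 0.25 (SE; adjusted p = 0.121, limma) in BRL37344 old and 0.76 ± 0.25 (SE; adjusted p = 0.199, limma) in saline old libraries. Rara, the receptor known for its fusion with PML in acute promyelocytic leukaemia, had 5.43, 2.77 and 1.02 RPKM in BRL37344 old, 3.16, 0.698 and 2.97 RPKM in saline old, and 4.03, 1.78 and 4.54 RPKM in saline young libraries. Its libraries varied several-fold within each old group and all groups overlapped. The log2 differences of Rara from saline young were -0.28 in BRL37344 old (adjusted p = 0.920, limma) and -0.59 in saline old libraries (adjusted p = 0.695, limma).

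The summed RPKM of the 3 RARs was 28.3, 26.9 and 18.9 in BRL37344 old, 28.1, 20.5 and 22.4 in saline old, and 18.1, 10.5 and 13.0 in saline young libraries, with every old library above every young one. The means were 24.7 ± 5.11 RPKM in BRL37344 old, 23.6 ± 3.94 RPKM in saline old and 13.9 ± 3.91 RPKM in saline young libraries (SD, n = 3 each). Rarb made up 51.5% to 58.9% of that sum in BRL37344 old, 54.8% to 74.6% in saline old and 30.7% to 60.5% in saline young libraries. In saline young library 3, Rara had the largest share of the 3 genes.

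The partner Rxrb (chr17:34031812-34038403) had its largest mean in young libraries. It had 28.0, 39.8 and 29.9 RPKM in BRL37344 old, 33.6, 25.8 and 24.9 RPKM in saline old, and 39.2, 41.2 and 42.1 RPKM in saline young libraries. Saline old libraries lay below saline young ones without overlap, and BRL37344 old library 2 lay within the young range. Against saline young the log2 difference was -0.34 ± 0.17 (SE; adjusted p = 0.562, limma) in BRL37344 old and -0.54 ± 0.17 (SE; adjusted p = 0.161, limma) in saline old libraries. With sample quality weights, where 1284 of all genes tested were called against 213, the second was -0.63 (adjusted p = 0.0195, limma). It passed in none of the 9 fits that each left out a library (adjusted p up to 0.420, limma), nor in 10 of 11 other alternatives. Rxra, the main RXR of liver and skin, had 2.58, 1.81 and 0.531 RPKM in BRL37344 old, 1.46, 2.34 and 1.43 RPKM in saline old, and 1.55, 1.35 and 1.93 RPKM in saline young libraries. The groups overlapped, with log2 differences from saline young of -0.11 in BRL37344 old (adjusted p = 0.963, limma) and 0.07 in saline old libraries (adjusted p = 0.957, limma).

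Rxrb held 91.55% or more of the summed RPKM of Rxra, Rxrb and Rxrg in every library. The ratio of that RXR sum to the RAR sum was 1.08, 1.55 and 1.61 in BRL37344 old, 1.26, 1.37 and 1.18 in saline old, and 2.25, 4.07 and 3.40 in saline young libraries. All 6 old libraries were under 1.7 and all 3 young ones above 2. The ratio was formed after the values were seen and has no test.

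**Figure D2:**
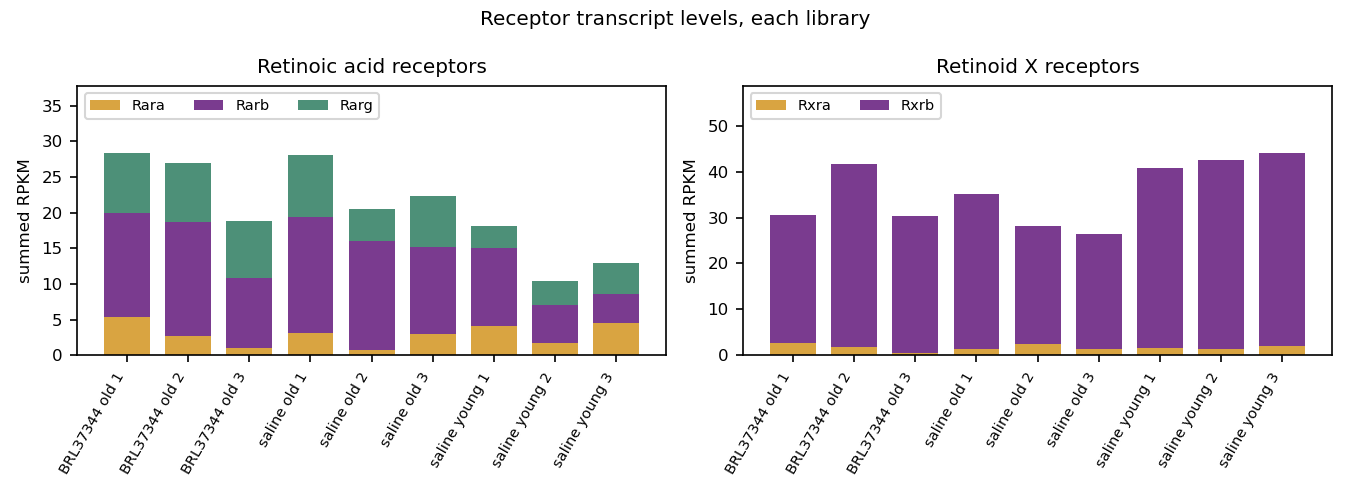
Summed RPKM (vertical axes, linear from 0) of Rara, Rarb and Rarg (left) and of Rxra and Rxrb (right), stacked, in each BRL37344 old, saline old and saline young library. The RAR stacks reach 18.9 RPKM or more in old and 18.1 RPKM or less in young libraries, and Rxrb makes up most of each stack on the right.

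Counted together, 0 of the 6 members tested besides Aldh1a1 were called in saline old against saline young, where 1.58% of all genes tested were called, and 0 of 6 in BRL37344 old against saline young, where 0.769% were. A share of that size gives less than 1 gene in 6, so the count does not set these members apart from other genes. Between saline old and saline young, 3 of these 6 had groups that did not overlap (Rarb and Rarg higher, Rxrb lower), against 20.3% of all genes tested. Between BRL37344 old and saline young this held for Rarg alone, 1 of 6, against 15.2% of all genes tested. The median log2 difference of the 6 was 0.46 in BRL37344 old libraries, beside -0.04 over all genes tested, and 0.42 in saline old libraries, beside -0.02. Both comparisons use the same saline young libraries.

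The β3 agonist was asked about by setting BRL37344 old against saline old libraries. In that comparison 0% of all genes tested were called (0 of 13516, with 762 at an unadjusted p under 0.05), and 0 of the 7 tested members were among the calls. No member had groups that did not overlap, against 10.1% of all genes tested. Aldh1a1 differed by -0.09 on the log2 scale, with a 95% interval of -0.60 to 0.42 (adjusted p = 0.954, limma), which does not reach the 2.70 or 2.79 seen against young libraries. For the others the intervals were -0.95 to 1.35 for Cyp26b1, -0.97 to 1.60 for Rara, -0.87 to 0.60 for Rarb, -0.25 to 0.88 for Rarg, -1.09 to 0.73 for Rxra and -0.16 to 0.57 for Rxrb. Each interval includes 0, and changes of any size inside it stay possible.

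**Figure D3:**
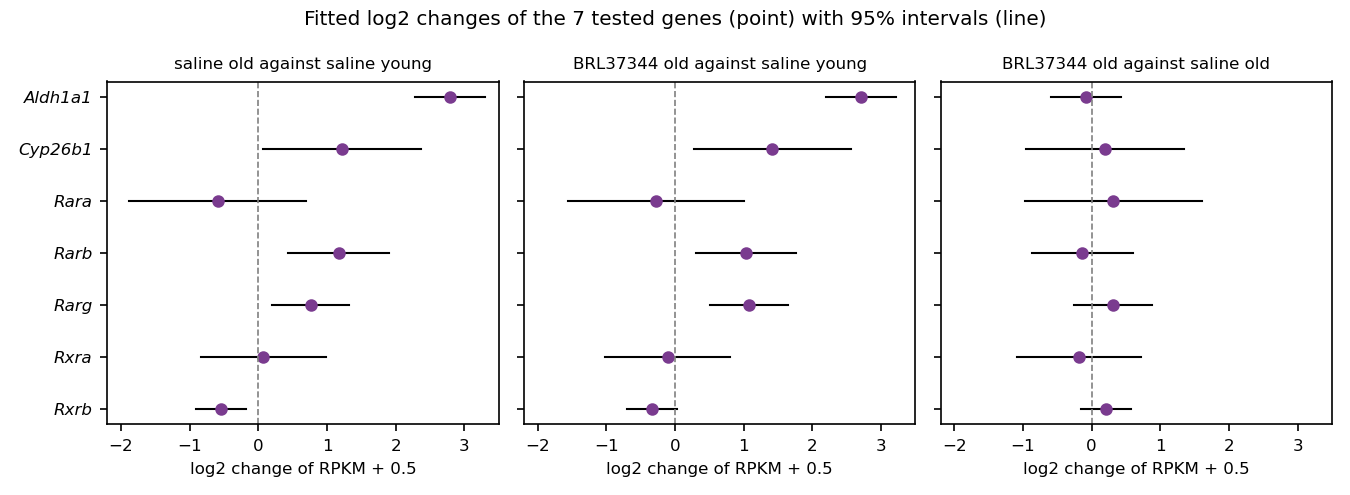
Log2 difference of RPKM + 0.5 (horizontal axis) with its 95% interval from the limma fit for the 7 tested members in each of the 3 comparisons. Aldh1a1, shown as a description against saline young, lies at 2.70 in BRL37344 old and 2.79 in saline old libraries and at -0.09 between the old groups.

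The genes around this family were read from 6 lists with tested members, chosen by function: uptake, transport and storage of retinoids, retinol and retinal oxidoreductases, nuclear receptors that pair with RXR, corepressors and coactivators, known retinoic acid targets, and the other aldehyde dehydrogenases. Of 93 genes with these and the remaining Aldh1a, Cyp26 and RXR genes, 55 were tested. In saline old against saline young 3 were called, all higher, beside 1.58% of all genes, and in BRL37344 old against saline young 2 were called, both higher, beside 0.769%. Of the 3, Aldh3a1 passed the filter only through the old libraries, so it could hardly have been called lower. With 1 RPKM required in every library, 2 of 42 listed genes were called in saline old, beside 159 of 10873 over all genes. Between the old groups 0 were called. The median log2 difference of the 55 was -0.04 in BRL37344 old and -0.05 in saline old libraries against saline young.

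Cd38, a known retinoic acid target that encodes a surface enzyme consuming NAD, was the listed gene called in both old groups. It had 31.2, 26.6 and 31.7 RPKM in BRL37344 old, 44.9, 35.2 and 26.6 RPKM in saline old, and 14.5, 7.002 and 8.30 RPKM in saline young libraries, without overlap between old and young. The log2 difference from saline young was 1.60 ± 0.27 (SE; adjusted p = 0.0209, limma) in BRL37344 old and 1.82 ± 0.27 (SE; adjusted p = 0.00847, limma) in saline old libraries. The saline old call held without each single library, and the BRL37344 old call was lost in 5 of 9 such fits, those without any BRL37344 old library or without saline young library 2 or 3, with adjusted p up to 0.0983. Without the 2 libraries with the highest neutrophil sums the saline old call was lost too (adjusted p = 0.0723, limma). The other tested targets did not pass in saline old against saline young. Tgm2, tissue transglutaminase, had 230, 142 and 106 RPKM in BRL37344 old, 291, 176 and 156 RPKM in saline old and 102, 66.9 and 100 RPKM in saline young libraries (log2 difference of saline old from saline young 1.18, adjusted p = 0.108, limma).

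Dhrs3, which reduces retinal back to retinol and is itself a retinoic acid target, had 11.2, 12.4 and 15.3 RPKM in BRL37344 old, 8.75, 12.5 and 6.04 RPKM in saline old, and 5.57, 2.01 and 3.17 RPKM in saline young libraries. All old libraries were above all young ones. Against saline young the log2 difference was 1.80 ± 0.35 (SE) in BRL37344 old, just under the threshold (adjusted p = 0.04998, limma), and 1.27 ± 0.35 (SE; adjusted p = 0.121, limma) in saline old libraries. The BRL37344 old call was lost in 7 of 9 fits that each left out a library, all but those without saline old library 3 or saline young library 1, with adjusted p up to 0.173. Of the 10 tested oxidoreductases it was the only one called. Rdh14, a retinol dehydrogenase, was the highest at 57.8 to 68.0 RPKM in BRL37344 old, 51.6 to 61.8 RPKM in saline old and 57.3 to 70.2 RPKM in saline young libraries. Rdh10, the retinol dehydrogenase of the embryo, had 4.19 to 9.92 RPKM in BRL37344 old, 3.21 to 14.3 RPKM in saline old and 3.79 to 6.42 RPKM in saline young libraries.

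Among genes of uptake, transport and storage, 6 of 17 were tested and 1 was called. Lpl, lipoprotein lipase, which helps cells take up retinyl esters from lipoproteins, had 3.89, 2.68 and 4.98 RPKM in BRL37344 old, 5.13, 5.05 and 3.80 RPKM in saline old, and 1.70, 1.498 and 1.68 RPKM in saline young libraries. The log2 difference from saline young was 0.998 (adjusted p = 0.182, limma) in BRL37344 old and 1.27 ± 0.27 (SE; adjusted p = 0.0473, limma) in saline old libraries. That call was lost in 7 of 9 fits that each left out a library, all but those without BRL37344 old library 2 or 3, with adjusted p up to 0.179. Lrat, which esterifies retinol for storage, and the serum carriers Rbp4 and Ttr were at or near the offset.

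Of 12 tested genes among the other aldehyde dehydrogenases, 1 was called. In saline old against saline young 8 of the 12 log2 differences were positive and 4 negative. Aldh3a1, which oxidises aromatic and medium-chain aldehydes, had 2.09, 0.801 and 3.68 RPKM in BRL37344 old, 6.36, 3.27 and 1.61 RPKM in saline old, and 0.324, 0.0004 and 0.205 RPKM in saline young libraries. Against saline young the log2 difference was 1.87 (adjusted p = 0.209, limma) in BRL37344 old and 2.52 ± 0.52 (SE; adjusted p = 0.0461, limma) in saline old libraries. It passed the filter only through the old libraries, as every young value was below 1 RPKM, and with 1 RPKM required in every library it was not tested. The call was lost in 6 of 9 fits that each left out a library, all but those without BRL37344 old library 2 or 3 or saline old library 3, with adjusted p up to 0.160. Aldh1l1, the cytosolic enzyme of folate metabolism, had 23.8 to 30.1 RPKM in BRL37344 old, 26.2 to 29.9 RPKM in saline old and 18.5 to 19.7 RPKM in saline young libraries, without overlap between old and young and without passing the test (log2 difference of saline old from saline young 0.54, adjusted p = 0.0866, limma). Aldh2 averaged 514 ± 57.7 RPKM in BRL37344 old, 495 ± 59.96 RPKM in saline old and 417 ± 45.0 RPKM in saline young libraries (SD, n = 3 each).

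The corepressor and coactivator list held no call in any comparison among its 17 tested genes. In saline old against saline young 13 of the 17 log2 differences were negative, with a median of -0.32 beside -0.02 over all genes tested. Between BRL37344 old and saline old 12 of 17 were positive, with a median of 0.19 beside 0.01. Both comparisons use the same saline old libraries, and that group's values enter them with opposite signs. Nrip1, a corepressor that binds liganded receptors, had 14.8, 37.9 and 41.7 RPKM in BRL37344 old, 32.4, 20.7 and 9.002 RPKM in saline old and 40.1, 38.3 and 47.6 RPKM in saline young libraries (log2 difference of saline old from saline young -1.17, adjusted p = 0.280, limma).

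The receptors that share RXR as a partner also held no call among 7 tested. Nr1h2, the oxysterol receptor LXRβ, was the highest at 54.9 to 56.7 RPKM in BRL37344 old, 55.9 to 62.1 RPKM in saline old and 48.9 to 59.4 RPKM in saline young libraries. Nr4a2, an orphan receptor of the Nurr family, had 1.05, 1.52 and 1.82 RPKM in BRL37344 old, 1.504, 1.20 and 1.33 RPKM in saline old, and 0.597, 0.196 and 0.870 RPKM in saline young libraries. Its old libraries lay above all young ones, yet the log2 difference from saline young did not pass, at 0.93 in BRL37344 old (adjusted p = 0.403, limma) and 0.86 in saline old libraries (adjusted p = 0.286, limma). It too passed the filter only through the old libraries. Thra, a thyroid hormone receptor, had 2.19 to 2.54 RPKM in BRL37344 old, 1.20 to 2.35 RPKM in saline old and 1.44 to 4.65 RPKM in saline young libraries, with overlap between all groups.

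**Figure D4:**
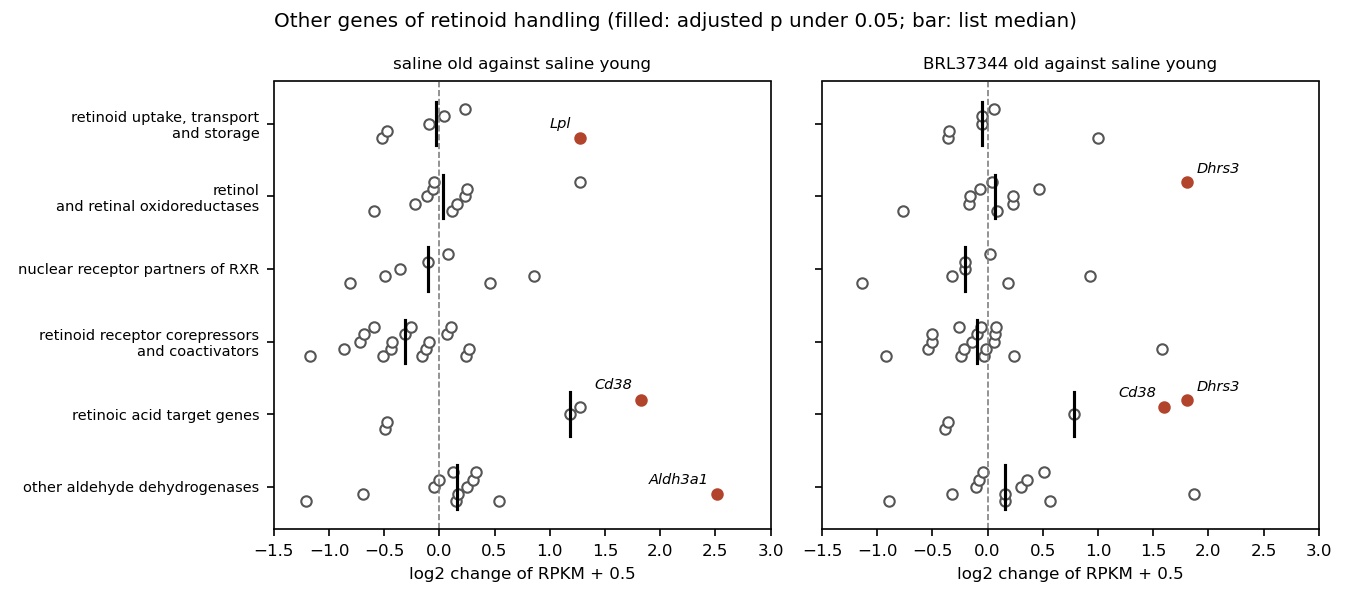
Log2 difference of RPKM + 0.5 (horizontal axes) of each tested gene of the 6 lists, in saline old (left) and BRL37344 old (right) against saline young libraries; filled circles are genes with adjusted p under 0.05 in the limma fit and vertical bars are list medians. Most genes lie near 0, with Cd38 called at 1.82 in saline old and at 1.60 in BRL37344 old libraries, and Dhrs3 drawn on 2 lists.

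Genes with a profile most like a member were found by the root mean square difference, over the 9 libraries, of log2(RPKM + 0.5) values taken minus each gene's own mean, among 7123 genes for Aldh1a1 and Rarb and 7124 for Cyp26b1 averaging 3 or more on that log2 scale. For Aldh1a1, whose own profile had a root mean square of 1.33, they were Fhdc1 (0.270), Aspa (0.337), Gstm2 (0.350), Sdpr (0.390) and Nupr1 (0.436). Aspa encodes aspartoacylase, Gstm2 a glutathione S-transferase and Sdpr a protein of caveolae. For Rarb, with a root mean square of 0.649, they were Cpne8 (0.201), Efna1 (0.249), Tnip3 (0.266), Pros1 (0.308) and Oxr1 (0.316). Efna1 encodes the ligand ephrin-A1 and Pros1 the anticoagulant protein S. For Cyp26b1, with a root mean square of 0.885, they were Plk2 (0.276), Jun (0.382), Rarb (0.407), Plek (0.480) and Apol7e (0.492). Rarb is thus among the 5 nearest of Cyp26b1, its profile sharing the high saline young library 1 and the low saline young libraries 2 and 3. With a pseudocount of 1 in place of 0.5, 5, 4 and 3 of the 5 nearest genes of Aldh1a1, Rarb and Cyp26b1 were shared.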

How the data were processed

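Per the labels' protocols, the RNA of about 2000 sorted HSCs per library went through SMART-Seq v4 amplification and Nextera XT, and a NextSeq 500 was the sequencer. The authors deposited 1 table of RPKM values for 9 libraries, 3 in each of 3 groups; Trim Galore, STAR 2.5.3a, Partek and the mm10 build are named in the submitters' processing notes. Values are not counts: they carry a small offset (0.0001 per transcript), and the annotation and any handling of shared reads are not given in the sources used here. Another 18 columns of values without sample names were not used, and 2 rows that name no gene were left out.

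Depth was estimated from the RPKM steps of 5545 genes with 1 transcript (transcript lengths from GENCODE vM21, reduced by 200); 87.6% to 89.8% of low values came within 0.05 of a whole number of reads. RPKM is the unit that the values fit; the estimate assumes whole reads. These implied reads cover counting error only, and were used for description, not for tests.

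Differences on the log2(RPKM + 0.5) scale were tested with limma 3.58.1 (R 4.3.3; eBayes with its trend and robust options on), in 1 fit over all 9 libraries, for 13516 genes at 1 RPKM or more in at least 3 libraries. P-values are two-sided, adjusted by Benjamini-Hochberg over all genes tested, with a threshold of 0.05. A fold change on this scale understates the change of low genes. The fit was tested on simulated data. Sequences are from RefSeq (GRCm38.p6) and gene positions from the GRCm38 annotation.

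Named genes are all 10 members, and for each list the called genes, those with the smallest p and those with the highest level; Rdh10, Aldh1a7, Lrat, Rbp4, Ttr and the cell type markers named singly were added after their values were seen. Some genes that the rule names are not reported here. The members, lists and tests were chosen with earlier results of these data known. Alternatives covered scaling, filter, pseudocount, sample weights, the samples in the fit, a replicate block and leaving out libraries. The exclusion of the 2 libraries with the highest neutrophil marker sums was chosen after seeing the data.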

Additional observations from a re-analysis of the deposited data

How the results depend on the processing

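Of 414 alternative values for the 21 log2 differences of the 7 tested members, 398 kept their direction and side of the threshold, 3 newly passed it and 13 changed sign. The sign changes were among uncalled differences. Rxra in BRL37344 old against saline young was 0.049 with sample quality weights, and Cyp26b1 in BRL37344 old against saline old was -0.10 without the 2 libraries with the highest neutrophil sums. Over the fits that each left out a library, Rxra ranged from -0.11 to 0.18 in saline old against saline young. Between BRL37344 old and saline old, Rara ranged from -0.21 to 0.83, Cyp26b1 from -0.10 to 0.50, Rarb from -0.27 to 0.066 and Rxra from -0.51 to 0.28. In BRL37344 old against saline young, Rara ranged from -0.75 to 0.24 and Rxra from -0.44 to 0.35. The Aldh1a1 difference from saline young ranged from 2.42 to 2.91 in BRL37344 old and from 2.51 to 2.995 in saline old libraries in these fits.

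Counts of calls moved more. Over all genes in saline old against saline young, 44 were called with no filter, 1284 with sample quality weights (516 higher and 768 lower, against 159 and 54), 83 without the 2 libraries with the highest neutrophil sums, and 96 to 591 when each library was left out in turn. The counts in BRL37344 old against saline young were 7, 169, 39 and 57 to 162. In BRL37344 old against saline old, 1 gene was called with a pseudocount of 0.1, 3 with sample quality weights, 2 in a fit of these groups alone and 0 to 38 when each library was left out, the 38 without BRL37344 old library 3. Of the listed genes around the family in saline old against saline young, 0 were called with no filter, 1 with a pseudocount of 1, 8 with sample quality weights, 0 without the 2 neutrophil-high libraries and 1 to 3 when each library was left out. Among them in BRL37344 old against saline young, the counts were 0 with no filter, 1 with a pseudocount of 0.1, 1 in a fit of these groups alone, 0 without the 2 neutrophil-high libraries and 0 to 2 when each library was left out. The cause of these shifts was not tested.

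Replicate numbers recur in the 3 groups. The correlation of same-numbered libraries' deviations was 0.105, -0.00762 and 0.007 for saline old with saline young. For BRL37344 old it was 0.19, 0.0376 and 0.0322 with saline young, and 0.0116, -0.0517 and 0.0894 with saline old. The correlation was not above 0.1 in every pair, so the numbers were not taken as pairs. With the replicate block, 174 genes were called in saline old against saline young, 92 in BRL37344 old against saline young and 0 in BRL37344 old against saline old. With it 2 listed genes were called in saline old against saline young and 1 in BRL37344 old against saline young. Lpl (adjusted p = 0.0905) and Aldh3a1 (adjusted p = 0.0633) no longer passed in saline old, nor Dhrs3 in BRL37344 old libraries (adjusted p = 0.112, limma).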
